A study of Mus musculus with 60 samples.

Results

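Transcripts of 45 genes of the nuclear pore and of nucleocytoplasmic transport were compared in the hippocampus between wild-type (WT) mice and R6/1 animals, a transgenic model of Huntington's disease. The genes were chosen by symbol, as a list drawn up with earlier results of these data known, and all 45 were found among the 24508 genes of the deposited RNA-seq table. They comprise 29 pore proteins (nucleoporins), 4 genes of the Ran cycle, 7 import receptors and 5 export receptors. All 45 passed the filter on low values, as did 14446 genes in all.

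The RNA came from 9 WT and 9 R6/1 hippocampus samples, which the labels describe as independent biological replicates, all 30 weeks old and on a mixed CBA x C57BL/6 background. R6/1 mice carry, in addition to their own huntingtin genes, a transgene with the first exon of human huntingtin and an expanded CAG repeat under the human promoter, while WT mice carry no transgene. The sex of the animals is not given in the labels. Lamin B1 ChIP-seq of the same tissue, age and genotypes used pools of 5 mice, 3 biological replicates per genotype, and enters here as 1 deposited list of lamina-associated domains per genotype.

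The nuclear pore complex is a channel through the nuclear envelope, built of stacked rings of scaffold proteins around a central channel lined with phenylalanine-glycine repeats, with filaments on the cytoplasmic face and a basket on the nuclear face. Importins and exportins carry cargo through it, and the small GTPase Ran gives the direction: its exchange factor sits on chromatin and its GTPase activator in the cytoplasm, so that Ran is GTP-bound in the nucleus and GDP-bound outside. Scaffold nucleoporins are among the longest-lived proteins of neurons, which no longer divide, and the basket touches the nuclear lamina.

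Expression is given as RPKM, reads per kilobase of gene scaled for depth by the authors, which allows levels of different genes to be compared. The reads behind these values, recovered from their steps, numbered 12299434 to 16457022 on genes per WT library and 13260311 to 16736544 per R6/1 library. A single member gene had between 28 reads in a library (Nup37) and 5027 (Kpnb1), and 3 members fell below 100 reads in some library. No libraries held identical values. Means are given ± SD over n = 9 libraries per genotype throughout, and fold changes are R6/1 minus WT on the log2(RPKM + 0.5) scale, which understates changes of low genes. A gene is called where its two-sided limma test, with Benjamini-Hochberg adjustment over all 14446 genes, gave an adjusted p under 0.05. These p-values measure the spread between the libraries of each genotype.

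Most of the pore and transport genes were modestly higher in R6/1. Of the 45 genes, 29 were called higher, 1 was called lower (Aaas) and 15 were not called, where 24.8% of all tested genes were called higher and 23.5% lower. The log2 fold change was above 0 for 40 of the 45, against 50.7% of all tested genes, and its median was 0.155 over the 45 and 0.004 over all tested genes. The 29 rises ranged from 0.125 to 0.78 with a median of 0.19, and 25 of them were under 0.3. In 20 of the 29, which were already selected by their call, every R6/1 library lay above the WT median. This was not counted over all tested genes. For 4 genes (Nup93, Kpna2, Xpo7 and Cse1l) all R6/1 libraries lay above all WT libraries, where 5.5% of tested genes did so, and for none did they lie below, where 6.38% did so. When depth was scaled by library totals of reads in place of size factors, the balance over all genes moved from 3586 higher and 3394 lower to 5110 higher and 2526 lower (35.4% and 17.5% of tested genes), and the members counted 37 higher and 0 lower. The authors' deposited table called the same 29 members higher and 0 lower, with 20% of its genes called higher and 20.4% lower, and gave Aaas an adjusted p of 0.0727. In bulk tissue, fewer cells of a type and less RNA per cell cannot be told apart.

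The shift was present in each R6/1 library. The median deviation of the 45 genes from their WT means, in log2 units, lay between -0.047 and 0.032 in the WT libraries. In the R6/1 libraries it lay between 0.093 and 0.202, so the genotypes did not overlap. Only the WT libraries are centred by this measure. Over all tested genes the median deviation lay between -0.013 and 0.009 in WT and between 0.004 and 0.012 in R6/1. Between 12 and 33 of the 45 genes lay above their WT mean in a WT library, and between 31 and 40 in an R6/1 library. On this count the genotypes overlapped, as WT replicate 4 had 33 genes above and R6/1 replicate 2 had 31. The spread of single genes between libraries was small: the coefficient of variation had a median of 7.31% in WT and 6.59% in R6/1, the widest being Nup43 in WT at 17.9%.

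**Figure D1:**
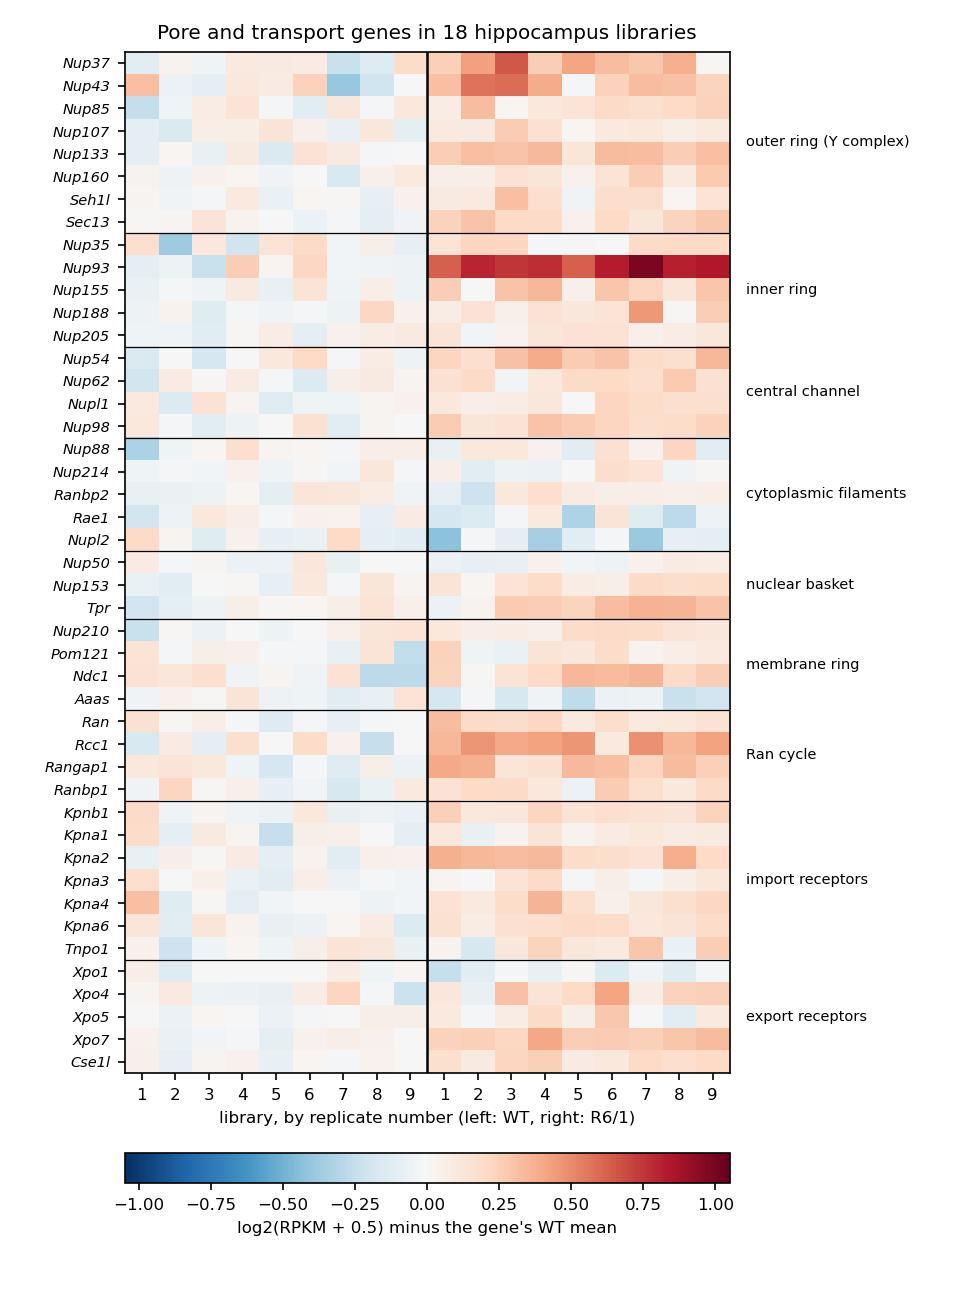
Each cell is the log2(RPKM + 0.5) of a gene (rows, grouped by place in the pore or transport cycle) in a library (columns, WT left and R6/1 right) minus the gene's WT mean, from blue (lower) to red (higher). Nup93 is the reddest row in all 9 R6/1 libraries. Among the rows without a strong red block are the 5 genes of the cytoplasmic filaments, Nup50, Aaas and Xpo1. Of these, Ranbp2 is faintly red (0.051 to 0.176) in R6/1 replicates 3 to 9.

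Markers of the hippocampal cell types, all detected, also differed between genotypes. All 8 markers of dentate granule neurons were lower in R6/1, with a median log2 fold change of -0.99, and their summed level was 110 to 167 RPKM in WT and 65.8 to 75.7 RPKM in R6/1. Beside the 23.5% of all tested genes called lower, the markers called lower were 5 of 6 for CA1 pyramidal neurons (with 1 called higher), 5 of 6 for CA3 pyramidal neurons, 6 of 7 for inhibitory neurons, 5 of 6 for astrocytes, 4 of 6 for oligodendrocytes, 3 of 6 for microglia, 2 of 6 for endothelial cells and 0 of 4 for oligodendrocyte precursors. Choroid plexus markers varied within both genotypes, their sum running from 25.4 to 1070 RPKM in WT and from 38.3 to 1730 RPKM in R6/1. Of 5 striatal markers 2 fell, and the 3 immature neuron markers tested were not called. No marker of these lists had a mean of 0 in either genotype. Their part in the rise of the pore and transport genes was not tested.

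The outer ring is formed by the Y complex, the scaffold that coats the nuclear and cytoplasmic faces of the pore. Its 8 genes had log2 fold changes from 0.11 to 0.33 with a median of 0.19. Of all tested genes 24.8% were called higher, and of the 45 members 64.4%. In the Y complex 7 of 8 genes (87.5%) rose and Nup107 was not called. The largest rises were those of Nup37 and Nup43, which differed by less than their SE and whose order turned in some alternatives, such as with array weights (0.32 for Nup37 and 0.38 for Nup43). Nup37 is a peripheral subunit of the Y complex (chr10:87609737-87641133, plus strand, 10 exons; gene positions are on build NCBIM37, the mm9 assembly). Nup37 ranged from 1.44 to 2.11 RPKM in WT (median 1.85) and from 1.80 to 3.09 RPKM in R6/1 (median 2.36). All but 1 of the R6/1 libraries exceeded the highest WT library. Means were 1.79 ± 0.217 RPKM in WT against 2.40 ± 0.346 RPKM in R6/1, a log2 fold change of 0.33 ± 0.0767 (SE; adjusted p 0.00124, limma). It was the least abundant of the 45 genes, with 28 to 74 reads per library.

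Nup43, another small subunit of the Y complex, had 2.58 ± 0.462 RPKM in WT against 3.36 ± 0.477 RPKM in R6/1 (log2 fold change 0.33, limma adjusted p 0.00571). Nup133, which forms the stem of the Y, rose with a smaller relative error, from 6.51 to 8.13 RPKM in WT to 8.01 to 9.34 RPKM in R6/1. Only the lowest R6/1 library of Nup133 fell within the WT range, and the log2 fold change was 0.29 ± 0.0442 (SE; adjusted p 2.37e-05, limma). Sec13, which also belongs to the COPII coat of secretory vesicles, was the most abundant Y complex gene, with means of 30.0 ± 1.49 RPKM in WT against 34.7 ± 1.84 RPKM in R6/1 (limma adjusted p 0.000123). Nup85 (mean 11.1 and 12.5 RPKM in WT and R6/1), Nup160 (2.95 and 3.29 RPKM) and Seh1l (10.0 and 11.1 RPKM) rose by 0.17, 0.14 and 0.13. The uncalled Nup107, a stem subunit, had 4.97 ± 0.403 RPKM in WT against 5.41 ± 0.283 RPKM in R6/1 (log2 fold change 0.11, limma adjusted p 0.0578), and 8 of its 9 R6/1 libraries lay above the WT median. The call of Nup160 was lost without WT replicate 7, R6/1 replicate 7 or R6/1 replicate 9 (limma adjusted p up to 0.0539).

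Nup93 changed most. It encodes the linker nucleoporin of the inner ring, which holds the channel nucleoporins to the scaffold, and lies at chr8:96738497-96838966, plus strand, 22 exons, 1718504 bp from the nearest lamin B1 domain of WT and 1681504 bp from that of R6/1. Its level ran from 6.54 to 9.36 RPKM in WT (median 7.56) and from 12.2 to 15.9 RPKM in R6/1 (median 13.9). The 2 genotypes were separated by a gap wider than the SD of either. With 7.81 ± 0.895 RPKM in WT against 13.8 ± 1.11 RPKM in R6/1, the fold change was 1.72, or 0.78 ± 0.061 (SE; adjusted p 3.47e-09, limma) on the log2 scale. Of the 14446 tested genes, 111 (0.77%) rose more. The authors' deposited table gave Nup93 a log2 fold change of 0.80 (SE 0.0655, adjusted p 4.68e-32).

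The promoter of Nup93 is shown because this gene rose most. RefSeq lists 2 starts for it, and the sequence is that of the upstream start, 250 bases before to 50 after it (GRCm38.p6, chr8:94214314-94214613, plus strand). Capitals mark, on either strand, the letters CCAAT (core of the NF-Y site) and GGGCGG (core of the SP/KLF site), which it holds 2 and 4 times.
Nup93 promoter: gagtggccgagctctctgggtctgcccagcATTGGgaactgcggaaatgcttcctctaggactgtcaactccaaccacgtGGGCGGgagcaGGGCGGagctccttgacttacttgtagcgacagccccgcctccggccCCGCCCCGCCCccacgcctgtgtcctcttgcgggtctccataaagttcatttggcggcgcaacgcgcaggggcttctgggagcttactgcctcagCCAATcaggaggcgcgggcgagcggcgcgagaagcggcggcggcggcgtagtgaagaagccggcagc
It holds none of the other 4 motifs searched, CCGGAAG, GCGCATGC, TGACGTCA and AAGATGGC. A match is only a match of letters.

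The other inner ring genes moved less. Nup155, a scaffold protein that contacts the membrane, rose from 4.45 to 5.25 RPKM in WT to 4.71 to 6.13 RPKM in R6/1, with ranges that overlap and a log2 fold change of 0.21 ± 0.0529 (SE; adjusted p 0.00259, limma). Nup188, a large scaffold protein, had 3.95 ± 0.307 RPKM in WT against 4.47 ± 0.478 RPKM in R6/1 (log2 fold change 0.16, limma adjusted p 0.0283). Its call rested on single libraries: without R6/1 replicate 7, its highest at 5.59 RPKM, the log2 fold change was 0.12 with a limma adjusted p of 0.0544, and the call was also lost without WT replicate 3 (0.0542) and without R6/1 replicate 9 (0.0525). Nup188 shares 4.2% of its 50-base words with Phyhd1, which it overlaps on the same strand, so its value is uncertain to that extent. Nup205, the close relative of Nup188 and the most abundant uncalled gene here, had 5.79 ± 0.349 RPKM in WT against 6.19 ± 0.283 RPKM in R6/1 (limma adjusted p 0.0779). Nup35 (5.55 and 6.08 RPKM, limma adjusted p 0.15) shares 82.78% of its 50-base words with Gm4353, which makes its level uncertain.

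All 4 genes of the central channel rose, beside 64.4% of the 45 members and 24.8% of all tested genes. Proteins of the central channel carry the phenylalanine-glycine repeats that form the permeability barrier. Nup54, part of the channel's trimer, ranged from 5.97 to 7.96 RPKM in WT (median 6.80) and from 7.73 to 9.11 RPKM in R6/1 (median 8.30). Only the 3 lowest R6/1 libraries fell within the WT range. Means of 6.85 ± 0.627 RPKM in WT against 8.31 ± 0.483 RPKM in R6/1 gave a log2 fold change of 0.26 ± 0.0509 (SE; adjusted p 0.00025, limma). Nup98, which docks export factors and whose precursor also yields the scaffold protein Nup96, rose by 0.22 ± 0.0423 (SE; adjusted p 0.000272, limma), from 6.80 to 7.97 RPKM. Nup62 (6.32 and 7.13 RPKM, limma adjusted p 0.00816) and Nupl1 (15.7 and 17.2 RPKM, limma adjusted p 0.0195), the partners of Nup54 in the trimer, rose by 0.16 and 0.125. Nup62 overlaps Il4i1 on the same strand and shares 2.43% of its words with it.

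The 5 genes of the cytoplasmic filaments formed the only role group with no call, where 7466 of all 14446 tested genes were not called. The group also had no call with scaling by library totals. Their log2 fold changes ran from -0.18 to 0.04 with a median of 0.02. Rae1, which binds messenger RNA export factors, was the most abundant of them: it ranged from 20.3 to 25.2 RPKM in WT (median 24.0) and from 18.5 to 25.6 RPKM in R6/1 (median 21.2), with wide overlap (log2 fold change -0.10, limma adjusted p 0.183). Ranbp2, the giant filament protein that holds SUMO-modified RanGAP1 at the pore, had 18.4 ± 1.17 RPKM in WT against 18.9 ± 1.51 RPKM in R6/1 (limma adjusted p 0.558). Nup88 (14.0 and 14.5 RPKM) and Nup214 (6.69 and 6.78 RPKM), which form the filament's base and dock exportin 1, had log2 fold changes of 0.04 and 0.02. Nupl2, a docking site for export factors, lay just outside the threshold: 2.56 ± 0.290 RPKM in WT against 2.21 ± 0.297 RPKM in R6/1, a log2 fold change of -0.18 ± 0.0734 (SE; adjusted p 0.0502, limma). Nupl2 passed it in 10 alternatives, among them pseudocounts of 0.1 and 1 (both 0.0498). The difference between the filaments and the other role groups was not tested.

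**Figure D2:**
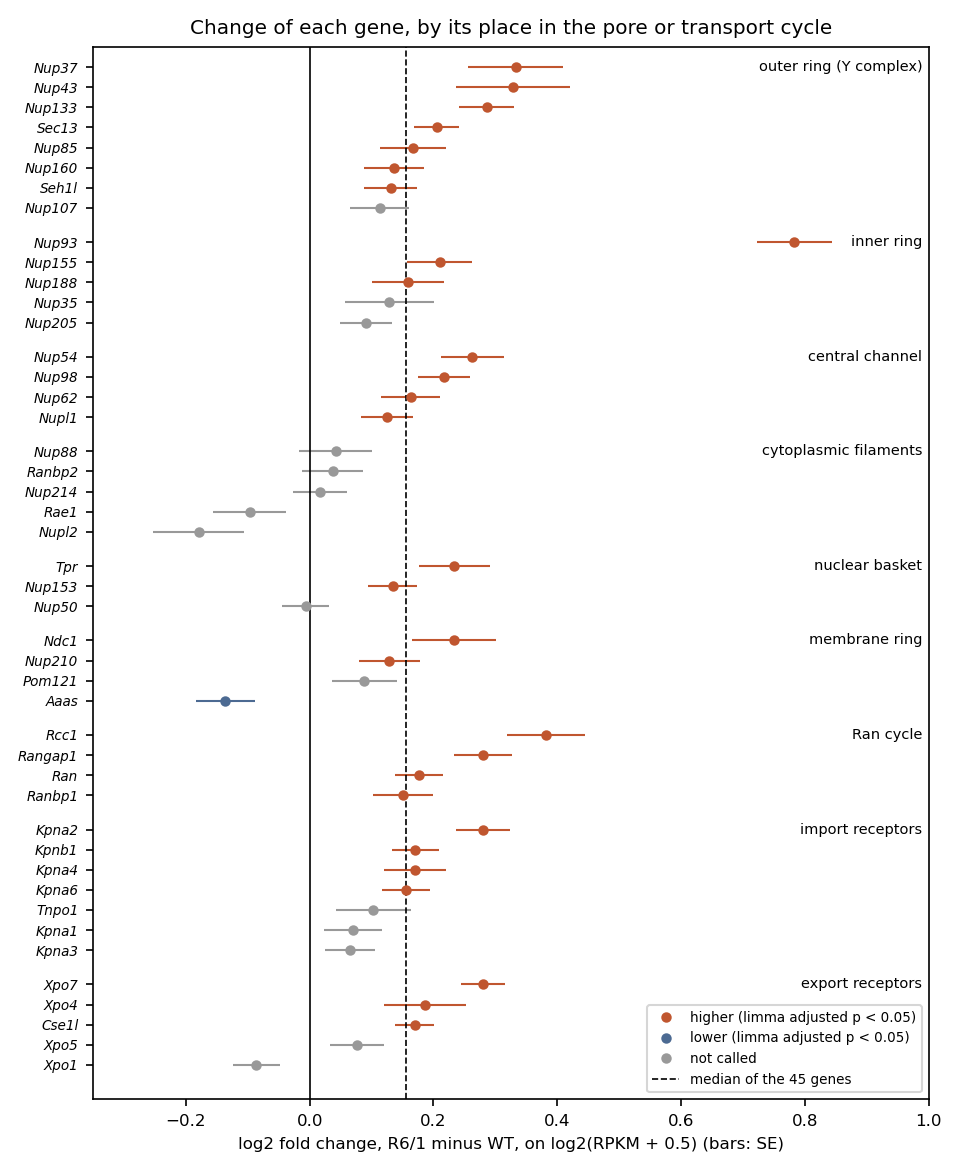
Points are the log2 fold changes of the 45 genes (R6/1 minus WT, log2(RPKM + 0.5)) with their SE as bars, grouped by place in the pore or transport cycle; orange is called higher, blue called lower and grey not called. Nup93 stands at 0.78 while all other genes lie at or below 0.38, and the 5 cytoplasmic filament genes lie left of the dashed median of 0.155.

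On the nuclear face, 2 of the 3 basket genes rose (66.7%, near the 64.4% of the 45 members). Tpr, the coiled-coil protein that builds the basket's rods (chr1:152239968-152297062, plus strand, 52 exons), ranged from 12.6 to 16.1 RPKM in WT (median 14.7) and from 14.0 to 18.9 RPKM in R6/1 (median 17.8). Of the R6/1 libraries, 7 lay above all WT libraries and 1 lay below the WT median. Its means were 14.6 ± 1.04 RPKM in WT against 17.3 ± 1.71 RPKM in R6/1, a log2 fold change of 0.23 ± 0.0575 (SE; adjusted p 0.00215, limma). Nup153, which anchors the basket and binds the lamina, rose by 0.13, from 10.1 to 11.1 RPKM (limma adjusted p 0.00844). Nup50, a cofactor of importin release, had 9.63 ± 0.479 RPKM in WT against 9.59 ± 0.475 RPKM in R6/1 and a log2 fold change of -0.01 ± 0.0379 (SE; adjusted p 0.913, limma). Tpr overlaps BC003331 and Prg4 on the opposite strand, and whether reads were counted by strand is not stated.

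The membrane ring anchors the pore in the envelope, and it held both directions. Of its 4 genes 2 were called higher (50%) and 1 lower (25%), where 24.8% and 23.5% of all tested genes were. Ndc1, a transmembrane nucleoporin, ranged from 4.24 to 5.96 RPKM in WT (median 5.35) and from 5.29 to 6.86 RPKM in R6/1 (median 6.26), with 7 R6/1 libraries above all WT libraries (log2 fold change 0.23, limma adjusted p 0.0077). Aaas, which encodes ALADIN, the Ndc1-bound nucleoporin mutated in triple A syndrome, fell. It ranged from 6.12 to 7.38 RPKM in WT (median 6.45) and from 5.43 to 6.56 RPKM in R6/1 (median 5.85), and 5 of the 9 R6/1 libraries lay below all WT libraries. With 6.66 ± 0.458 RPKM in WT against 6.02 ± 0.423 RPKM in R6/1, its log2 fold change was -0.14 ± 0.0479 (SE; adjusted p 0.0241, limma). This call was lost with scaling by library totals (log2 fold change -0.07, limma adjusted p 0.264), without WT replicate 4 (0.0506) and without WT replicate 9 (0.0504). Nup210, a transmembrane glycoprotein, rose from 4.58 to 5.04 RPKM (limma adjusted p 0.0338), a call lost in 7 of 30 alternatives. The uncalled Pom121 had 15.1 ± 1.28 RPKM in WT against 16.0 ± 1.17 RPKM in R6/1 (limma adjusted p 0.175).

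The 4 genes of the Ran cycle all rose, beside 64.4% of the 45 members and 24.8% of all tested genes. They included the most abundant of the 45. In WT, Ran (75.5 to 92.8 RPKM) and Rangap1 (62.6 to 77.7 RPKM) ranked highest, with overlapping ranges, followed by Kpnb1 (41.0 to 50.0 RPKM), Kpna1 (32.2 to 43.6 RPKM) and Ranbp1 (33.0 to 43.5 RPKM), whose ranges also overlap. Rcc1, the chromatin-bound exchange factor that loads Ran with GTP (chr4:131887834-131909520, minus strand, 11 exons), rose most after Nup93. It ranged from 3.37 to 4.73 RPKM in WT (median 4.11) and from 4.42 to 5.90 RPKM in R6/1 (median 5.63), and 8 of the 9 R6/1 libraries lay above all WT libraries. Means of 4.11 ± 0.453 RPKM in WT against 5.50 ± 0.451 RPKM in R6/1 gave a log2 fold change of 0.38 ± 0.0629 (SE; adjusted p 4.72e-05, limma). Rcc1 overlaps Snhg3 and the small nucleolar RNAs within it on the same strand, and whether reads of these were counted as its own was not tested.

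Rangap1, the activator that makes Ran hydrolyse GTP, ranged from 62.6 to 77.7 RPKM in WT (median 69.8) and from 77.3 to 93.3 RPKM in R6/1 (median 88.0). Its lowest R6/1 library fell just within the WT range, and the log2 fold change was 0.28 ± 0.0473 (SE; adjusted p 6.33e-05, limma). Ran itself ranged from 75.5 to 92.8 RPKM in WT (median 82.4) and from 88.9 to 104 RPKM in R6/1 (median 94.0), a rise of 0.18 ± 0.0383 (SE; adjusted p 0.000734, limma). Ranbp1, which assists hydrolysis in the cytoplasm, had 37.3 ± 3.09 RPKM in WT against 41.4 ± 2.66 RPKM in R6/1 (log2 fold change 0.15, limma adjusted p 0.0145). The log2 ratio of Rcc1 to Rangap1 within a library, the exchange factor over the activator, was -3.96 ± 0.21 in WT and -3.85 ± 0.16 in R6/1, a difference of 0.10 that lay within the spread between libraries (two-sided exact permutation test over 48620 arrangements, p = 0.262, adjusted over the 4 pairs tested 0.262).

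The promoter of Rcc1 (GRCm38.p6, chr4:132345701-132346000, minus strand) is shown because 3 Ran-cycle promoters hold the letters GCGCATGC. Capitals mark, on either strand, GCGCATGC (core of the NRF1 site) and GGGCGG.
Rcc1 promoter: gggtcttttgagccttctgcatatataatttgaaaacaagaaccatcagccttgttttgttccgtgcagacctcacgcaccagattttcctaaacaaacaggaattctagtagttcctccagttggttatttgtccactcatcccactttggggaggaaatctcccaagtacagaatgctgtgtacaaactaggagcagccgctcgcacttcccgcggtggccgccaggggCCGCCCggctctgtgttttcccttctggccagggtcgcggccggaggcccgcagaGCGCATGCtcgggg
The letters GCGCATGC occur in the promoters of 3 of the 4 Ran-cycle genes (Ran, Ranbp1 and Rcc1), and in those of Nup50, Nup62, Nup107, Nupl1 and Xpo5. That makes 8 of 39 promoters of the 35 members with an entry (20.5%), against 4.8% of the promoters of tested genes and 2.7% of all promoters. Of these 8 genes 5 were called higher and 3 not called, where 29 of all 45 members (64.4%) were called higher. A link between these letters and the rise was not tested. CCGGAAG (ETS core) was in 20.5% of the member promoters, 15.4% of those of tested genes and 8.9% of all promoters. For GGGCGG these shares were 71.8%, 60.8% and 35.7%, and for CCAAT 46.2%, 37.1% and 37.4%. TGACGTCA (CRE) was in 7.7%, 3.0% and 1.8%, and AAGATGGC (YY1) in 10.3%, 4.0% and 2.7%. Member promoters had a median GC content of 64.3%, against 60.7% for tested genes.

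Among the 7 import receptors 4 rose (57.1%) and 3 were not called, where 64.4% of the 45 members and 24.8% of all tested genes were called higher. Kpna2, the importin alpha of dividing cells and stem cells (chr11:106849943-106860855, minus strand, 11 exons), showed the largest rise. It ranged from 11.3 to 13.1 RPKM in WT (median 12.6) and from 13.7 to 16.1 RPKM in R6/1 (median 15.5). The genotypes did not overlap, with 12.3 ± 0.683 RPKM in WT against 15.0 ± 0.994 RPKM in R6/1 and a log2 fold change of 0.28 ± 0.0429 (SE; adjusted p 2.11e-05, limma). Of the 7 dividing-cell markers 2 were tested: Pcna rose from 28.6 to 37.1 RPKM (limma adjusted p 7.46e-08) and Mcm2 was not called. The other 5 lay below the filter. Mki67 (mean 0.292 RPKM in WT and 0.105 in R6/1) and Top2a (0.236 and 0.040 RPKM) were lower in every R6/1 library than in any WT library. The genotypes overlapped for Cdk1 (0.121 and 0.063 RPKM), Ccnb1 (0.128 and 0.189 RPKM) and Birc5 (0.325 and 0.421 RPKM). The summed level of the 7, most of it Pcna (26.8 to 30.4 RPKM in WT and 33.8 to 39.6 RPKM in R6/1), was 29.3 to 32.6 RPKM in WT and 35.6 to 41.7 RPKM in R6/1, and the part of these markers in the rise of Kpna2 was not tested.

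The promoter of Kpna2 is printed because its genotypes did not overlap (GRCm38.p6, chr11:106999476-106999775, minus strand). Capitals mark CCAAT and GGGCGG on either strand.
Kpna2 promoter: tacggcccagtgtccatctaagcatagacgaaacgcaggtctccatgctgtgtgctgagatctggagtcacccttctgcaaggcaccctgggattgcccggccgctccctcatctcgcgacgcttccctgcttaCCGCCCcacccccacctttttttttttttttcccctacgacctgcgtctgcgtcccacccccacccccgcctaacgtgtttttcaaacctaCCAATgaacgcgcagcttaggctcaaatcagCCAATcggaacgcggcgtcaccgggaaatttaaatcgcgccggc

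Kpnb1, importin beta, the partner that carries the importin alphas through the pore, ranged from 41.0 to 50.0 RPKM in WT (median 42.2) and from 46.9 to 51.8 RPKM in R6/1 (median 48.2). Only 3 R6/1 libraries exceeded all WT libraries, yet all 9 exceeded the WT median, and the log2 fold change was 0.17 ± 0.0383 (SE; adjusted p 0.000966, limma). Tnpo1, the carrier of RNA-binding proteins, had 11.1 ± 0.880 RPKM in WT against 11.97 ± 1.29 RPKM in R6/1 (limma adjusted p 0.17).

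The importin alphas, adaptors that read the nuclear localization signal, fell into called and uncalled members of the same subfamilies. Kpna1 had 38.3 ± 3.35 RPKM in WT against 40.1 ± 1.76 RPKM in R6/1 and was not called (limma adjusted p 0.224), while its close relative Kpna6 had 27.2 ± 1.99 RPKM in WT against 30.3 ± 0.852 RPKM in R6/1 and rose by 0.155 ± 0.0389 (SE; adjusted p 0.00258, limma). Within libraries, the log2 ratio of Kpna1 to Kpna6 was 0.48 ± 0.086 in WT and 0.40 ± 0.056 in R6/1, a difference of -0.08 (exact permutation p = 0.0269, adjusted 0.0359). This call was lost when any of 10 of the 18 libraries was left out (WT replicates 1, 2, 6, 7 and 9 and R6/1 replicates 2, 3, 5, 6 and 9; adjusted p up to 0.0717). Kpna3 had 29.2 ± 1.85 RPKM in WT against 30.5 ± 1.70 RPKM in R6/1 (limma adjusted p 0.194) and its relative Kpna4 28.4 ± 2.78 RPKM in WT against 32.0 ± 1.96 RPKM in R6/1 (log2 fold change 0.17, limma adjusted p 0.00785). Their log2 ratio fell by 0.11, from 0.04 ± 0.083 to -0.06 ± 0.059 (exact permutation p = 0.00839, adjusted 0.0168), and 3 R6/1 libraries lay below all WT libraries. Kpna1 and Kpna3 were called higher with scaling by library totals (limma adjusted p 0.0044 and 0.00261), a scaling that leaves the ratios as they are but for the pseudocount.

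As shares of the summed RPKM of the 5 importin alphas, Kpna1 made up 28.3% ± 1.04 in WT and 27.1% ± 0.904 in R6/1, and Kpna3 21.6% ± 0.687 and 20.6% ± 0.634. Kpna2 made up 9.1% ± 0.775 in WT and 10.2% ± 0.666 in R6/1. Kpna4 (21.0% and 21.6%) and Kpna6 (20.1% and 20.5%) differed by less than the SD of either genotype. None of the 5 shares a 50-base word with another coding transcript.

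Of the 5 export receptors 3 rose (60%, against 64.4% of the 45 members and 24.8% of all tested genes). Among the 3 were 2 of the 4 genes without overlap. Xpo7, exportin 7, a carrier of broad cargo range (chr14:71054053-71166435, minus strand, 28 exons), ranged from 7.33 to 8.21 RPKM in WT (median 7.88) and from 9.22 to 10.6 RPKM in R6/1 (median 9.50). With 7.86 ± 0.315 RPKM in WT against 9.64 ± 0.411 RPKM in R6/1, its log2 fold change was 0.28 ± 0.0349 (SE; adjusted p 1.9e-06, limma). Cse1l, the exportin that returns importin alpha to the cytoplasm (chr2:166731540-166771889, plus strand, 25 exons), ranged from 18.8 to 20.8 RPKM in WT (median 20.4) and from 21.3 to 23.8 RPKM in R6/1 (median 22.7), a log2 fold change of 0.17 ± 0.0317 (SE; adjusted p 0.000174, limma). Xpo4, an exportin of SMAD3 and eIF5A, rose from 3.03 to 3.52 RPKM (limma adjusted p 0.0251), a call lost without WT replicate 9 (limma adjusted p 0.0524) and without R6/1 replicate 6 (0.0527). It overlaps Lats2 on the same strand, with 3.9% of its words shared, and Xpo7 overlaps Dok2 on the opposite strand.

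**Figure D3:**
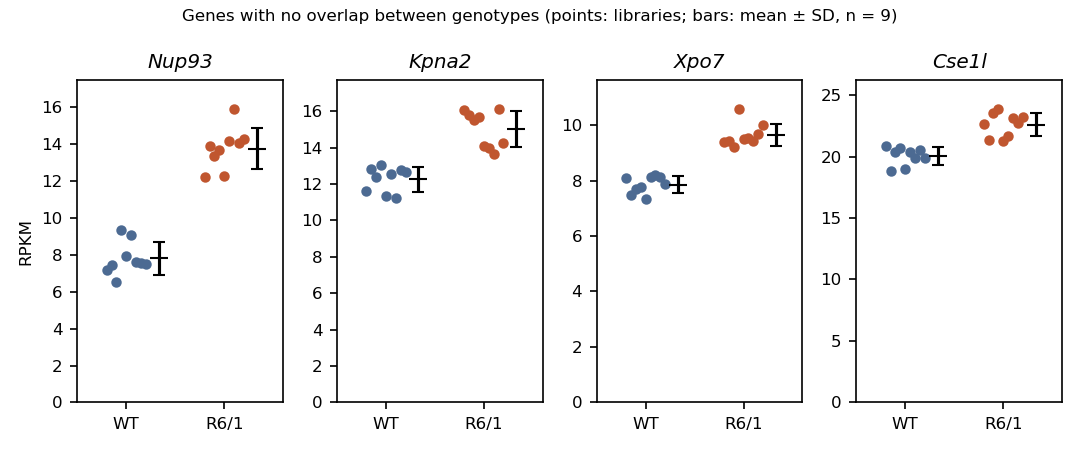
Points are the RPKM of single libraries of Nup93, Kpna2, Xpo7 and Cse1l in WT and R6/1, and bars the mean ± SD (n = 9); each vertical axis starts at 0. In each panel the lowest R6/1 library lies above the highest WT library, by the widest margin for Nup93 (12.2 against 9.36 RPKM).

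Xpo1, exportin 1 (CRM1), the main carrier of proteins with leucine-rich export signals, was the most abundant of the 5 export receptors after Cse1l, whose WT range it overlaps, and was not called. It ranged from 17.7 to 20.6 RPKM in WT (median 19.6) and from 16.4 to 19.7 RPKM in R6/1 (median 18.5), and 1 R6/1 library lay above the WT median. With 19.5 ± 0.868 RPKM in WT against 18.4 ± 1.03 RPKM in R6/1, its log2 fold change of -0.09 ± 0.0374 (SE; adjusted p 0.0637, limma) did not pass the threshold, although it did in 3 alternatives (limma adjusted p as low as 0.0233 without WT replicate 2). Xpo5, the exporter of precursor microRNAs, had 15.9 ± 0.513 RPKM in WT against 16.8 ± 1.44 RPKM in R6/1 (limma adjusted p 0.156). Within libraries, the log2 ratio of Kpnb1 to Xpo1, the main import over the main export receptor, was 1.13 ± 0.10 in WT and 1.39 ± 0.11 in R6/1, a difference of 0.26 or 1.2-fold (exact permutation p = 0.000123, adjusted 0.000494). All but 2 R6/1 libraries exceeded the highest WT ratio.

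**Figure D4:**
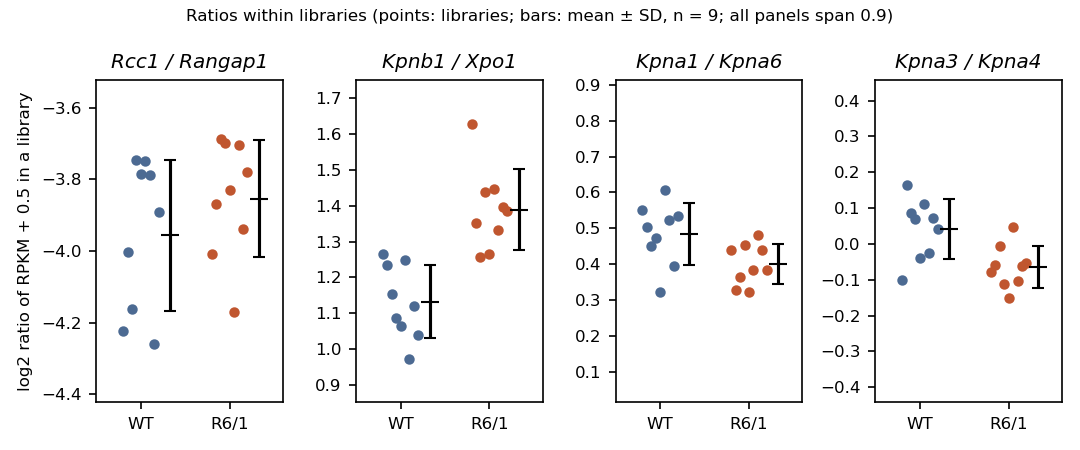
Points are log2 ratios of 2 genes' RPKM + 0.5 within single libraries for 4 pairs, and bars are the mean ± SD (n = 9); the vertical axes differ in position and all span 0.9 log2 units. The Kpnb1 to Xpo1 ratio rises from 1.13 to 1.39, while for the Rcc1 to Rangap1 ratio 6 of the 9 R6/1 libraries lie within the WT range.

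Further genes of transport, outside the 45, were examined as 5 lists with 58 symbols, of which 56 were in the table and 53 were tested. Of these 26 rose (49.1%), 4 fell (7.5%) and 23 were not called, where 24.8% of all tested genes were called higher and 23.5% lower. In 10 all R6/1 libraries lay above all WT libraries and in 2 below, where 5.5% and 6.38% of tested genes did so. These totals include the lists of messenger RNA export and of the SUMO cycle, which are described further below. Of the 10 other importins tested, 6 rose and 0 fell. Ipo8, a carrier linked to SMAD proteins and Argonaute, ranged from 12.7 to 16.0 RPKM in WT (median 13.6) and from 16.1 to 17.9 RPKM in R6/1 (median 17.1) without overlap, a log2 fold change of 0.31 ± 0.0377 (SE; adjusted p 1.39e-06, limma). The 7 other exportins and Ran cofactors were all called, 5 higher (71.4%) and 2 lower (28.6%, near the 23.5% of all tested genes). Ranbp17, the relative of Xpo7, rose by 0.31 ± 0.0706 (SE; adjusted p 0.00119, limma) from 1.28 to 1.72 RPKM. Rangrf (MOG1), which releases nucleotide from Ran, fell without overlap, from 7.86 to 9.69 RPKM in WT (median 8.69) to 4.83 to 7.82 RPKM in R6/1 (median 6.12), a log2 fold change of -0.515 ± 0.0718 (SE; adjusted p 7.2e-06, limma). Nutf2, the importer of Ran itself, also fell, from 6.25 to 5.04 RPKM, a log2 change of -0.285 ± 0.0659 (SE; adjusted p 0.00128, limma), and is named as the other of the 2 that fell. Another list held other proteins of the pore and the nuclear envelope, and of its 4 tested genes 2 rose. These were Tor1aip1, a lamina-associated inner membrane protein and not a pore protein (log2 fold change 0.24, limma adjusted p 9.43e-05), and Ahctf1 (0.18, limma adjusted p 0.00696).

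Where the 45 genes lie relative to the nuclear lamina was read from the deposited lamin B1 domains, 145 in WT covering 1061.6 Mb and 166 in R6/1 covering 892.4 Mb. With 1 list per genotype these positions have no replicate spread. The start of 3 of the 45 genes lay in a WT domain (6.67%: Nup35, Tpr and Kpna4), against 1791 of 13850 tested genes with a position (12.93%). In R6/1 it was 0 of 45, against 1094 of 13850 (7.9%). The median distance of a member's start to the nearest domain was 5.97 Mb in both genotypes, and that of all tested genes 3.50 Mb in WT and 3.33 Mb in R6/1.

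All 3 genes lay outside the domains called in R6/1, at different distances. The start of Tpr (chromosome 1, 152239968) lay 607 kb inside the end of a WT domain of 14.06 Mb (chr1:138787001-152847000), and the R6/1 domain ended 59.0 kb before it (chr1:141081001-152181000). For Nup35 (chromosome 2, 80457393) the WT domain ran from 77182001 to 90169000 and the R6/1 domain began 91.6 kb beyond the start, at 80549001. For Kpna4 (chromosome 3, 68931035), deep inside a WT domain of 19.61 Mb (chr3:59089001-78699000), the R6/1 list holds domains on both sides (chr3:59089001-64898000 and chr3:69930001-78699000), the nearer one 999 kb away. Tpr and Kpna4 were called higher and Nup35 was not. Over all tested genes, 747 had a start in a domain of WT alone, and of these 24.2% were called higher and 20.2% lower, with a median log2 fold change of 0.009.

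**Figure D5:**
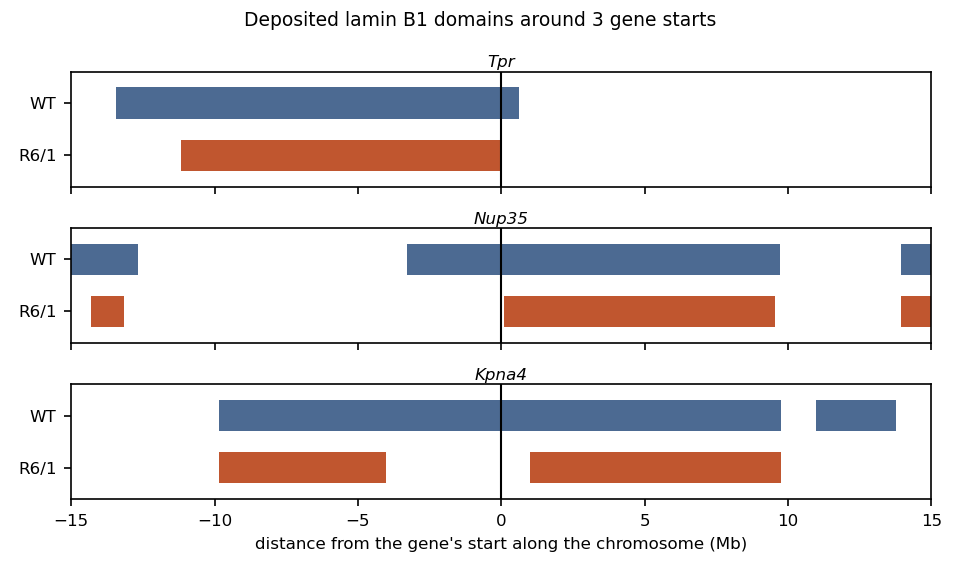
Bars are the deposited lamin B1 domains of WT (blue) and R6/1 (orange) within 15 Mb of the starts of Tpr, Nup35 and Kpna4, against the distance from the start along the chromosome in Mb; the vertical line is the start, and bars that reach the plot's edge go on beyond it. Each start lies in a WT bar and outside the R6/1 bars, by 59.0 kb for Tpr, 91.6 kb for Nup35 and 999 kb for Kpna4.

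The promoter of Tpr (GRCm38.p6, chr1:150392588-150392887, plus strand) is shown because its start lies in a WT domain and in no R6/1 domain. Capitals mark CCAAT and GGGCGG on either strand.
Tpr promoter: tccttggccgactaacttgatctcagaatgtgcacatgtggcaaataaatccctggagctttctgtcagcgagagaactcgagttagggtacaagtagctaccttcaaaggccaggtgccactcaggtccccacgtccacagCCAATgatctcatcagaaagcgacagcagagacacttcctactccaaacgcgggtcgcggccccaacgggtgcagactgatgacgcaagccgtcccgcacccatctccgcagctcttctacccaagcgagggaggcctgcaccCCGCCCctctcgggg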

How the data were processed

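RNA-seq of mouse hippocampus was made from messenger RNA with a stranded kit, and lamin B1 ChIP-seq from pooled tissue, per the labels' protocols. TopHat, DESeq2, Bowtie and the mm9 build are named in the submitters' processing notes. The counter, the annotation and whether reads were counted by strand are not given in the sources used here. The authors deposited RPKM per gene symbol, and a table of their comparison that gives per gene the mean normalized count (signal), the log2 fold change, the test's score and the p-value, raw and adjusted. Rescaling each gene's RPKM to its mean normalized count gave whole reads for 99.87% to 99.91% of the values in a library, within 0.05 of a read. The deposited depth scaling is therefore by size factors and not by each library's own total. The domain lists were made with EDD from lamin B1 and input, per the names of the deposited files, and hold 1 score per domain. How replicates were combined is not given in the sources used here. Neither ATAC-seq nor ChIP reads were analysed here, and 0 columns of per-sample values were unused.

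Each library took its genotype from its label. Genes whose mean was 0.5 RPKM or more were tested on log2(RPKM + 0.5) with limma 3.58.1 (R 4.3.3; moderated by eBayes, trended prior), two-sided, with Benjamini-Hochberg adjustment over all tested genes. Ratios of 4 pairs of genes were compared with a two-sided exact permutation test over libraries, adjusted over the 4 pairs; 9 libraries against 9 can reach a p of 4.11e-05. The limma test was also run on simulated data with 14428 genes, of which 48 to 50 were changed at each size, far fewer than were called here. It recovered 50% of the genes changed by 0.3 (log2), 98% at 0.6, 95.9% at 1 and 100% at 2. Of its calls 3.98% were false. Counting error is only part of the spread between libraries.

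Gene symbols were matched to NCBIM37 with GENCODE vM1 by name or RefSeq synonym: 22068 of 24508 genes, 13850 of the tested genes and all 45 members, 1 of them by synonym (Ndc1, as Tmem48). Promoters are RefSeq sequences on GRCm38.p6, found for 35 of the 45. Motifs were searched on both strands. Shared sequence was counted as words of 50 bases also found in other coding transcripts.

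The members and lists were chosen with earlier results of these data known. Full values are given, per role, for the called genes with the largest rise and the largest fall, for genes without overlap between genotypes and for the 4 pairs. From the other lists the called genes with the largest rise and fall are named, and uncalled members are given by counts, with the most abundant as an example; other members are named with their means. The alternatives were pseudocounts of 0.1 and 1, other filters, median centring, quantile normalization, scaling by library totals, a replicate block, an untrended prior, array weights, voom on the recovered reads, the authors' deposited table, leaving out each library and other definitions of a gene in a domain.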

Additional observations from a re-analysis of the deposited data

Results flagged for a closer look

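In 9 of 114 groups of 9 libraries, 1 library at the top or bottom lay farther from its neighbour than Dixon's 95% limit on the share of the range allows. Chance flags about 1 in 20 groups, here 5.7. WT replicate 1 gave 3 of the 9: the highest Kpna4, at 35.4 RPKM with the next library at 28.5, the highest Ipo8, at 16.0 RPKM with the next at 14.2, and the lowest Nup88, at 10.99 RPKM with the next at 13.6. Leaving it out moved the log2 fold change of Kpna4 to 0.21 (adjusted p 0.000102 by limma), that of Ipo8 to 0.335 (6.27e-08) and that of Nup88 to 0 (0.998).

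Nup188 had such a library in both genotypes. WT replicate 8 was highest at 4.65 RPKM (next 4.09) and R6/1 replicate 7 was highest at 5.59 RPKM (next 4.80). Its call was lost without R6/1 replicate 7 and kept without WT replicate 8 (limma adjusted p 0.0102).

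In R6/1, the remaining libraries were replicate 5 for Nup133 (lowest, 8.01 RPKM, next 8.79), replicate 1 for Ran (highest, 104 RPKM, next 96.6), replicate 6 for Rcc1 (lowest, 4.42 RPKM, next 5.33) and replicate 2 for Kpna1 (lowest, 36.1 RPKM, next 39.2). Leaving each out changed no call of its gene: the limma adjusted p was then 9.51e-06 for Nup133, 0.00146 for Ran, 9.52e-06 for Rcc1 and 0.122 for Kpna1.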

How the results depend on the processing

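Of the 29 members called higher, 25 kept the call in all 30 alternatives; Nup160, Nup188, Nup210 and Xpo4 lost it in some. None of the 30 called members changed sign. The count of members called higher was 27 to 32 over the alternatives that keep all libraries, except 37 with scaling by library totals, and 26 to 30 with 1 library left out. The count of members called lower, 1, was 2 with pseudocounts of 0.1 and 1, without trend and with voom, where Nupl2 joined Aaas, and 0 with scaling by library totals and in the authors' deposited table; with 1 library left out it ranged from 0 (without WT replicate 4) to 2. Of the 15 uncalled members 10 gained a call in some alternative. The other transport genes counted 23 to 31 higher and 3 to 5 lower. The Kpna1 to Kpna6 ratio ranged from -0.105 to -0.069 with 1 library left out, and the call was lost in 10 of 18 cases. Taking a start within 100 kb as in a domain gave 2 members in R6/1 domains (Tpr and Nup35) in place of 0. The simulated recovery of 50% at 0.3 came from data with a set spread and far fewer changed genes than were called here. It is therefore no measure of what was missed among the members. The members called higher started at 0.125, and the uncalled ones ran from -0.179 to 0.129. A member without a call is not thereby shown to be unchanged.

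The labels give both genotypes the same replicate numbers without saying that a number is shared. Same-numbered libraries correlated by -0.053 to 0.237 in their deviations, 3 of 9 over 0.1, and 2 of 9 correlated best with their own number, so the numbers were not taken as pairs. With the replicate number as a block, 27 members were higher and 1 lower, Nup188 and Xpo4 losing their call (limma adjusted p 0.0503 and 0.0527). The pair ratios were then compared by an exact test that flips the signs of the 9 same-numbered differences. Its adjusted p was 0.254 for Rcc1 to Rangap1, 0.0156 for Kpnb1 to Xpo1, 0.0417 for Kpna1 to Kpna6 and 0.0156 for Kpna3 to Kpna4. This test has far fewer arrangements than 48620 and cannot reach p-values as small, so the sizes of the 2 are not comparable.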

Other observations

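The SUMO cycle acts at the pore, where Ranbp2 joins the small modifier SUMO to its targets and Rangap1 is a main one. Of 9 genes tested 6 rose (66.7%, against 24.8% of all tested genes), 1 fell (11.1%, against 23.5%) and 2 were not called. In 4 of the 9 all R6/1 libraries lay above all WT libraries, where 5.5% of tested genes did so. Sumo3, one of the modifiers, ranged from 29.1 to 36.0 RPKM in WT (median 32.7) and from 48.3 to 55.3 RPKM in R6/1 (median 52.4), without overlap, a log2 fold change of 0.685 ± 0.0368 (SE; adjusted p 1.63e-11, limma). The genes of the activating enzyme, Sae1 and Uba2, had 30.0 ± 2.25 RPKM in WT against 35.9 ± 2.13 RPKM in R6/1 (limma adjusted p 9.84e-05) and 33.7 ± 1.36 RPKM in WT against 41.0 ± 2.64 RPKM in R6/1 (limma adjusted p 5.98e-06). Senp2, a SUMO protease of the basket, was the gene that fell (log2 fold change -0.09, limma adjusted p 0.0485), a call lost in 19 alternatives.

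Of 23 messenger RNA export genes 7 rose, 1 fell and 15 were not called. The shares were 30.4% higher and 4.3% lower, against 24.8% and 23.5% of all tested genes. In 3 of the 23 all R6/1 libraries lay above all WT libraries and in 1 below, where 5.5% and 6.38% of tested genes did so. Gle1, which with inositol phosphate activates the pore-bound helicase that strips export factors from RNA, ranged from 15.6 to 18.6 RPKM in WT (median 17.8) and from 20.01 to 23.1 RPKM in R6/1 (median 21.0), without overlap (log2 fold change 0.27, limma adjusted p 6.96e-06). Ddx39b, the helicase that loads export factors on messenger RNA, was lower without overlap, from 60.5 to 69.3 RPKM in WT (median 65.1) to 50.7 to 59.9 RPKM in R6/1 (median 55.1), a log2 fold change of -0.25 ± 0.0401 (SE; adjusted p 3.79e-05, limma). Nxf1, the main messenger RNA carrier, had 17.8 ± 2.72 RPKM in WT against 16.2 ± 1.31 RPKM in R6/1 (limma adjusted p 0.189). The SUMO and export genes named beyond the largest rise and fall were chosen after their values were seen.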
